A study of Mus musculus with 2 samples.

Results

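Basal cells of the adult mouse mammary gland differed widely in their content of immediate-early transcripts. In the total epithelium library, 1070 of 3302 cells passed a gate for basal cells, which asked for 10 or more counts of Krt5, Krt14 and Acta2 together and fewer than 8 counts of Krt8, Krt18 and Krt19 together. These cells were ranked by the counts of Fos, Jun, Junb and Egr1 as a share of the total count of the cell. The 267 cells with the highest share and the 267 with the lowest share form the 2 groups described here, and matching 1 to 1 on total count kept 223 cells of each. Outside the 4 ranking genes, the cells with the high share (immediate-early-high cells) held more RNA of other early response factors (Egr2, Nr4a1, Ier2, Klf2). They also held more RNA of the inducible chaperone Hspa1a and of some feedback inhibitors (Zfp36, Tob1, Ppp1r15a, Nfkbia), while others were level or lower. They held less RNA of Rcan1, Ralgds, Fst, Tubb6, Sphk1 and the AP-1 subunit Fosl1, and less Krt17 and Krt15. Of the contractile genes of the basal cell, 1 of 16 measured differed by 1.5-fold or more, where 17.1% of all 1304 other measured genes did.

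Immediate-early genes are those that a cell transcribes directly after a stimulus, from factors already present and without new protein synthesis. Fos and Jun proteins pair to form the transcription factor AP-1, and Egr1 is a zinc finger factor whose gene is switched on by serum response factor and its partners. The response is brief, because the induced genes include phosphatases, RNA decay factors and inhibitors that shut it down. Basal cells form the outer, contractile layer of the mammary ducts. Enzymatic dissociation of tissue and sorting are known to induce these genes in many cell types, together with heat shock genes. AP-1 and Egr factors also act downstream of growth factor and mechanical signals in intact tissue.

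The study profiled single cells of mammary glands of FVB/NJ mice, an inbred laboratory strain. The 2 libraries analysed here came from adult females of 10 weeks: total epithelium, sorted as Lin–CD24+ cells, and basal cells, sorted as Lin–CD29hiCD24+. Each was 1 library of the 10X Chromium 3′ protocol, in which molecules are counted once by a random tag, made from a pool of 4 mice. The Lin gate removed cells with the red cell, endothelial and leukocyte proteins TER119, CD31 and CD45, and propidium iodide removed dead cells. The mouse of origin of a cell cannot be told apart in the pool. With 1 library and cells that are not replicates, no test was made, and intervals given below are exact 95% intervals that cover counting error only. The sorted basal library was gated, ranked and matched in the same way and serves as a second set of cells.

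The total epithelium library held 9227651 counts, with a median of 2425.5 a cell, and the sorted basal library 2488704 counts, with a median of 487 a cell. The gated cells of the total epithelium library had a median of 1712.5 counts. Before matching, the immediate-early-high cells were shallower, with a median of 1551 counts against 1878. After matching the medians were 1658 and 1655, with 847 and 853 genes detected. Mitochondrial transcripts took 0.372% and 0.374% of counts in the matched high and low cells, ribosomal protein transcripts 8.84% and 9.22%, and Malat1, a nuclear RNA, 1.25% and 1.18%. In the sorted basal library 1737 of 4771 cells passed the gate, and 425 pairs were matched, with medians of 647 counts in both groups. The libraries shared 28 barcodes, and 6 of these were among the gated cells of the total epithelium library.

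Basal markers that the gate did not use were present in both groups. Tagln, a smooth muscle gene, was at 5680 CPM (counts scaled to 1000000 in all) in high and 5898 CPM in low cells, against 17.0 CPM in luminal cells. Myh11, smooth muscle myosin, was at 609 and 692 CPM, against 2.62 CPM in luminal cells. Cnn1, calponin, was at 3599 and 3579 CPM, against 11.9 CPM in luminal cells. The gate itself fixed most of the following sums, since it set a floor on Krt5, Krt14 and Acta2 and a cap on Krt8, Krt18 and Krt19. The summed level of 10 basal markers was 43547 CPM in high and 51703 in low cells, with 12 to 216 counts a cell (median 67) in high cells and 14 to 308 (median 85) in low cells. Luminal keratins and Epcam summed to 2267 and 2540 CPM. The luminal progenitor markers Kit and Aldh1a3 had no count in either group, nor did the leukocyte markers Ptprc, Laptm5, Cd52 and Tyrobp or the endothelial markers Emcn, Kdr and Cdh5. Fibroblast markers, almost all of them Dcn, summed to 297 CPM in high and 496 CPM in low cells, with Pdgfra at 0. The 6 pericyte markers gave 1 count in high and 14 in low cells, with Kcnj8 and Abcc9 at 0. The part of these other cell types in the results was not tested beyond leaving out every cell with such a count. With those cells left out, the summed log2 ratio of the AP-1 partner, immediate-early and feedback lists together was 0.57 in place of 0.68. No doublets were called, and the gate kept out cells with 8 or more luminal keratin counts.

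The members were selected on the 4 ranking genes, so their levels are a description of the choice. Over all gated cells the share ran from 0% to 11.9% of counts, with a median of 2.61%. The high quartile spanned 4.08% to 11.9% and the low quartile 0% to 1.41%. The borders fell inside a continuous distribution. The last cell inside the high quartile had 53 of 1300 counts (4.0769%) and the first cell outside it 75 of 1842 (4.0717%). At the lower border, the cell just inside had 22 of 1555 counts (1.4148%) and the cell just outside 48 of 3343 (1.4358%). The 0.25% bins that hold the upper and lower border had 31 and 59 cells. The high and low groups are cuts from a range of this share, and whether they are separate types was not tested.

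**Figure D1:**
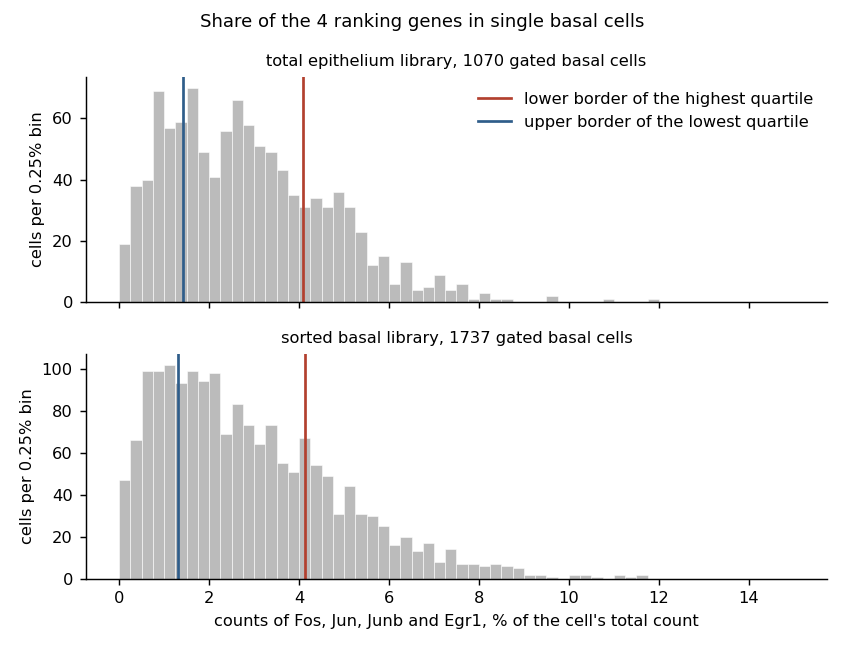
Number of gated basal cells (vertical axis) by the share of counts from Fos, Jun, Junb and Egr1 (horizontal axis, % of the cell's total, bins of 0.25%), for the total epithelium library with 1070 cells and the sorted basal library with 1737. The lines mark the quartile borders at 4.08% and 1.41% in the total epithelium library and at 4.13% and 1.31% in the sorted basal library; the share falls off without a gap at any of them.

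Fos, the DNA-binding partner of Jun in AP-1, had 4 to 100 counts a cell (median 36) in the matched high cells and 0 to 17 (median 2) in the low cells. Junb, an AP-1 subunit, had the most counts of the 4, with 11 to 114 counts (median 41) against 0 to 35 (median 10). Jun had 0 to 61 counts (median 7) and 0 to 9 (median 1). Egr1 had 0 to 17 (median 3) and 0 to 5 (median 0). For each of these genes the ranges of the 2 groups overlapped, although the summed share did not. Together they took 5.25% of the counts of the high cells and 0.847% of those of the low cells. Summed levels were 22233 against 1689 CPM for Fos, 25845 against 6089 CPM for Junb, 5062 against 560 CPM for Jun and 2307 against 207 CPM for Egr1, where the denominators, here and for every gene below, leave out the 4 ranking genes.

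The 4 genes followed one another when they were not used to rank. In cells ranked without Fos, Fos was 6.46-fold higher in the high quartile (log2 ratio 2.69, interval 2.60 to 2.79). Ranked without Jun, Jun was 6.57-fold higher (2.72, 2.53 to 2.90). Ranked without Egr1, Egr1 was 7.66-fold higher (2.94, 2.65 to 3.23). Junb differed least, at 2.55-fold in cells ranked without it (1.35, 1.30 to 1.40). Luminal cells of the same library, gated by the opposite rule, drew 1.81% of their counts from the 4 genes (exact interval 1.80 to 1.82%, 1869 cells with a median of 3042 counts), against 2.73% (2.71 to 2.76%) in the gated basal cells. Jun alone went the other way, with 0.435% of counts in luminal and 0.207% in basal cells. The gated cells of the sorted basal library drew 2.88% from the 4 genes, at a median depth of 646 counts a cell.

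Of 1304 other genes measured, meaning genes with 100 counts or more in both matched groups together, 112 were at least 1.5-fold higher in high cells (8.59%) and 111 at least 1.5-fold lower (8.51%), which is 17.1% in either direction. The median log2 ratio of all these genes was −0.03. The 10 highest were Egr2, Hspa1a, Cited2, Nr4a1, Hexim1, Zfp36, Tob1, Cyr61, Atf3 and Rem2. The 10 lowest were Ralgds, Rcan1, Fst, Tubb6, Crispld2, Smim3, Akirin1, Sphk1, Tmem51 and Fosl1. All 20 kept their sign in the sorted basal library, although Cited2, Hexim1, Rem2, Smim3, Akirin1 and Fosl1 had fewer than 100 counts there. The 1.5-fold limit is a rule of size and not a test, so the shares above are the background against which the gene lists below are read.

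**Figure D2:**
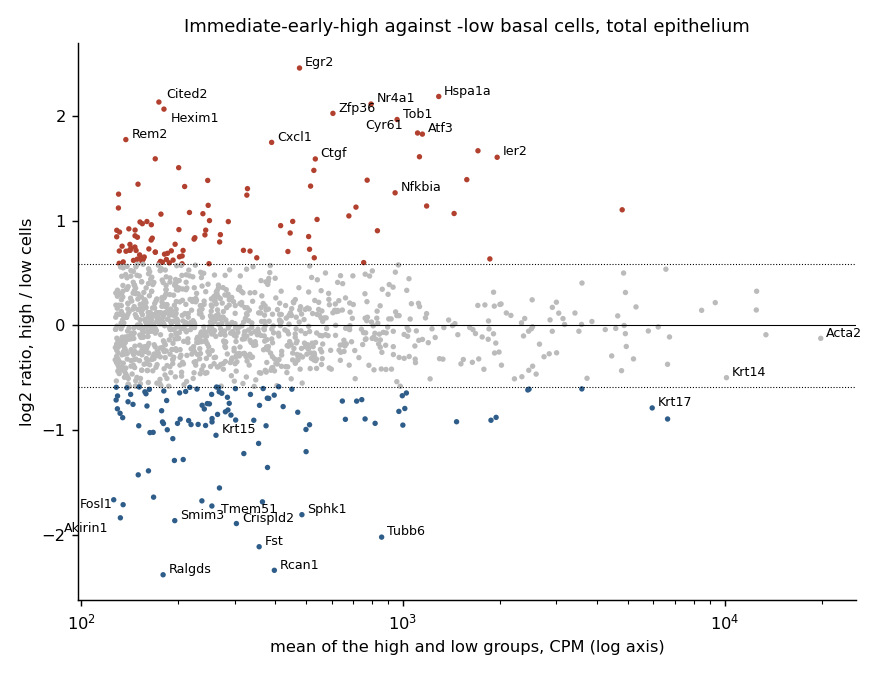
Log2 ratio of immediate-early-high to immediate-early-low cells (vertical axis) by the mean level of both groups in CPM (horizontal, log axis) for 1304 measured genes without the 4 ranking genes. Red points are the 112 genes at least 1.5-fold higher and blue points the 111 at least 1.5-fold lower, with dotted lines at the limit; Egr2, Hspa1a and Nr4a1 lie at the top and Ralgds, Rcan1 and Fst at the bottom.

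The AP-1 family did not share 1 direction. Of 11 listed partners of Fos and Jun, 7 were measured, 2 were higher (8.59% of all genes were) and 1 was lower, with a list median of −0.11 and a summed log2 ratio of 0.43 (0.35 to 0.51). Atf3, a stress-induced factor that pairs with Jun proteins, had 0 to 23 counts a cell (median 2) in high cells and 0 to 10 (median 0) in low cells, or 1792 against 506 CPM (log2 ratio 1.83, 1.60 to 2.06). Fosb, a Fos paralog, had 0 to 20 counts (median 4) against 0 to 9 (median 1), or 2601 against 819 CPM (1.67, 1.49 to 1.85). High cells thus held more of both, with overlapping ranges. Fosl1, which encodes the Fos family protein FRA-1, was opposite, with 24 counts over 223 high cells and 83 over 223 low cells, or 63.1 against 207 CPM (−1.71, −2.43 to −1.04). Maff, a small MAF protein, was at 1947 and 2737 CPM (−0.49). Jund, Atf4 and Mafk had log2 ratios of −0.07, −0.11 and −0.15. The other listed partners stayed under the count floor.

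Other immediate-early factors were higher in most of the measured cases. Of 30 listed, 21 were measured, 13 were at least 1.5-fold higher and none lower, against 8.59% of all genes, with a median log2 ratio of 0.80. Egr2, a zinc finger paralog of Egr1, had 0 to 12 counts (median 1) in high and 0 to 4 (median 0) in low cells, or 807 against 147 CPM (log2 ratio 2.46, 2.05 to 2.88). It was at 23.5 CPM in luminal cells. Nr4a1, an orphan nuclear receptor, had 0 to 18 counts (median 1) against 0 to 8 (median 0), or 1293 against 299 CPM (2.11, 1.82 to 2.41). In luminal cells Nr4a1 was at 217 CPM. Ier2 was at 2953 and 971 CPM (1.60, 1.44 to 1.77), and at 1756 CPM in luminal cells. Klf2, a Krüppel-like factor, was at 778 and 279 CPM (1.48, 1.16 to 1.81), with up to 38 counts in 1 high cell, and at 1824 CPM in luminal cells, above both basal groups. The other 9 that passed the limit were Ier3, Irf1, Klf4, Id2, Btg2, Sertad1, Btg1, Klf6 and Myc, with log2 ratios from 0.60 for Myc to 1.39 for Ier3.

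Not all members were higher. Nr4a2, a paralog of Nr4a1, had a log2 ratio of −0.24, Id3 of −0.28, Arc of 0.07 and Klf10 of 0.10. Nr4a3, the other paralog, had 1 count in high and 14 in low cells, and Cebpb 29 and 54, both under the floor. Egr3 had no count in either group, which allows up to 3 counts in each. Cebpd was not analysed here.

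Inhibitors of the response were mixed. Of 26 listed feedback genes, 17 were measured, 6 were higher and 2 lower, against 8.59% and 8.51% of all measured genes. The list median log2 ratio was 0.21 and the summed log2 ratio 0.58 (0.53 to 0.62). Zfp36, which encodes the RNA decay factor tristetraprolin, had 0 to 7 counts (median 1) in high and 0 to 3 (median 0) in low cells, or 972 against 239 CPM (2.02, 1.70 to 2.36). Tob1, an antiproliferative adaptor of RNA deadenylation, was at 1526 and 391 CPM (1.96, 1.71 to 2.23). Their paralogs did not share this, with Zfp36l1 at 0.21, Zfp36l2 at −0.31 and Tob2 under the floor with 36 and 29 counts. Ppp1r15a (GADD34), which directs a phosphatase to the initiation factor eIF2α, was at 1695 and 555 CPM (1.61, 1.39 to 1.84). Nfkbia, the inhibitor IκBα of NF-κB, was at 1335 and 555 CPM (1.26, 1.03 to 1.499), and at 1872 CPM in luminal cells. Socs3, an inhibitor of cytokine receptor signalling, and Dusp1, a phosphatase of MAP kinases, passed the limit at 1.10 and 0.63. Dusp5 and Dusp6, phosphatases of ERK, were at −0.51 and 0.09. The lower genes were Gadd45a (−0.65) and Errfi1 (−0.62), an inhibitor of the EGF receptor.

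Of the 23 heat shock and chaperone genes, 16 were measured, 4 were higher and none lower, against 8.59% and 8.51% of all measured genes. The list median log2 ratio was 0.22. Hspa1a, an inducible cytosolic HSP70, had 0 to 46 counts (median 2) in high and 0 to 10 (median 0) in low cells, or 2117 against 466 CPM (2.18, 1.95 to 2.42). Hspa1b, its near-identical copy, had 9 and 7 counts, and the assignment of reads between these genes is uncertain. Dnajb1, the HSP40 partner of HSP70, was at 1629 and 740 CPM (1.14, 0.94 to 1.34). The high group was thus higher in this inducible pair, with overlapping ranges. Dnajb9, a chaperone of the endoplasmic reticulum, was at 0.88 and Ahsa1, an activator of HSP90, at 0.59. The other measured chaperones lay nearer to 0, with Hsp90aa1 at 0.21, Hspb1 at 0.09, Hspa8 at −0.02, Dnaja1 at −0.10 and Hspd1, the mitochondrial chaperonin, at −0.36. Dnajb4, under the floor, had 62 counts in high and 32 in low cells.

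Genes known to be induced by tissue dissociation were read as a list of their own. Of 51 listed, 38 were measured, 20 were higher and 3 lower, against 8.59% and 8.51% of all measured genes. The median log2 ratio was 0.68, against −0.03 for all genes. The list is not separate from those above, since 28 of its genes are also in the immediate-early or feedback lists and 12 in the heat shock list. Its 20 higher genes include Cxcl1, a chemokine, at 602 and 179 CPM (1.75, 1.36 to 2.15), and Cyr61. The 3 lower genes were Mt1, Nop58 and Errfi1. In the sorted basal library 37 of its genes were measured, 20 were higher and 3 lower, with a median of 0.67. The shares over all genes measured there were 8.54% and 13.8%. All cells of a library went through the same dissociation and sort, and no undissociated tissue is part of these data. The part of dissociation in the difference between cells was not tested. Metallothionein and redox genes had no higher member, with 3 of 13 lower and a median of −0.24. Mitochondrial transcripts had a summed log2 ratio of 0.06 (−0.05 to 0.16). The 10 measured genes of the unfolded protein response had 1 higher and 1 lower. Over all measured genes 8.59% were higher and 8.51% lower, so both counts of the unfolded protein response list were near these shares.

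**Figure D3:**
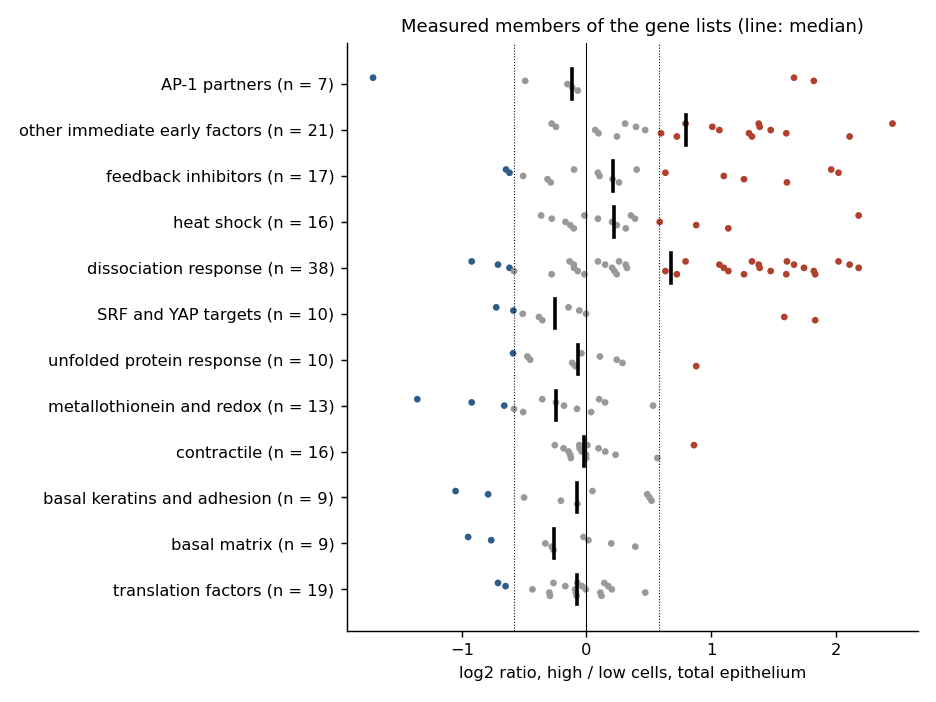
Log2 ratio of immediate-early-high to immediate-early-low cells (horizontal axis) for each measured member of 12 gene lists (rows, with the number measured), total epithelium library. Points are genes, red at least 1.5-fold higher and blue at least 1.5-fold lower, dotted lines mark that limit and black lines the list medians, which are 0.80 for the other immediate-early factors, 0.68 for the dissociation list and −0.02 for the contractile genes.

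Among redox genes, the lower members were Txnrd1, the cytosolic thioredoxin reductase, at 213 and 545 CPM (−1.36, −1.74 to −0.98), the metallothionein Mt1 at 1014 and 1920 CPM (−0.92, −1.10 to −0.74) and Sod2, a mitochondrial superoxide dismutase, at −0.66. Mt1 had 0 to 9 counts a cell (median 1) in high cells and 0 to 13 (median 3) in low cells. High cells therefore held less of both, and the ranges overlapped. Of the NF-κB and cytokine genes only 4 of 20 were measured and Cxcl1 passed the limit. Cxcl14, a chemokine abundant in basal cells, was at 5680 and 4020 CPM (0.50, 0.41 to 0.59). Ccl7 had 37 and 6 counts and Csf1 5 and 23, both under the floor. In the sorted basal library Ccl7 went the other way, with 1 and 7 counts, and Csf1 had 10 and 46. In the unfolded protein response list Dnajb9 was the higher gene and Xbp1, at 121 and 182 CPM, the lower one. Hspa5 was at 0.24 and Atf4 at −0.11. In the sorted basal library 8 genes of this list were measured and none passed the limit.

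Targets of SRF and YAP, which read out actin tension, were split. Of 10 measured genes, 2 were higher and 2 lower, against 8.59% and 8.51% of all measured genes, with a median of −0.25. Cyr61, a secreted matricellular protein, had 0 to 62 counts (median 1) in high and 0 to 20 (median 0) in low cells, or 1734 against 486 CPM (1.84, 1.60 to 2.07). Its relative Ctgf was at 801 and 266 CPM (1.59, 1.27 to 1.92), and at 3.76 CPM in luminal cells. The other measured targets did not share this, among them Thbs1, which also encodes a secreted protein. Tagln2 was at −0.72, Thbs1 at −0.59, Actg1 at −0.51 and Actb at −0.38.

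The 10 lowest genes formed no list fixed here. Rcan1, an inhibitor of the phosphatase calcineurin, had 0 to 4 counts (median 0) in high cells and 0 to 14 (median 0) in low cells, or 131 against 665 CPM (−2.34, −2.81 to −1.90). Ralgds, an exchange factor for Ral GTPases that acts downstream of Ras, had 22 and 121 counts, or 57.8 against 301 CPM (−2.38, −3.11 to −1.72). Fst, which encodes the activin antagonist follistatin, was at 134 and 580 CPM (−2.11, −2.58 to −1.67). These 3 were the lowest of all measured genes, and each was 4-fold or more lower. Tubb6, a β-tubulin, had 0 to 5 counts (median 0) against 0 to 10 (median 2), or 339 against 1377 CPM (−2.02, −2.31 to −1.74). Sphk1, the kinase that makes sphingosine 1-phosphate, was at 215 and 755 CPM (−1.81, −2.18 to −1.45). Crispld2, a secreted protein, was at 129 and 478 CPM (−1.89), Smim3 at 84.1 and 306 CPM (−1.87), Akirin1, a nuclear cofactor of transcription, at 57.8 and 207 CPM (−1.84), and Tmem51 at 118 and 391 CPM (−1.73). All 10 were lower in the sorted basal library as well, 3 of them (Smim3, Akirin1 and Fosl1) on fewer than 100 counts. Hexim1, an inhibitor of the elongation factor P-TEFb, and Cited2, a transcriptional coactivator, were at the other end, at 292 and 69.7 CPM (2.06) and 284 and 64.8 CPM (2.13). Rem2, a small GTPase, was at 213 and 62.3 CPM (1.77).

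Levels over all 4 quartiles place the middle cells beside the ends. Of the 112 higher genes, 64 stepped upward at each quartile from the lowest to the highest, and of the 111 lower genes, 77 stepped downward. The order of the end quartiles was largely fixed by the choice of these genes in the same cells. The share of all measured genes with such steps was not computed, so these counts are a description only. Egr2 was at 136, 331, 517 and 800 CPM from the lowest quartile up, and Atf3 at 468, 806, 1177 and 1771 CPM. Cyr61 was different, at 633, 589, 797 and 1748 CPM, so that only the highest quartile stood above the rest. Going down, Tubb6 was at 1391, 1046, 539 and 338 CPM and Fst at 709, 345, 180 and 127 CPM. Krt17 was at 7232, 7282, 4854 and 4559 CPM, with its step between the middle quartiles. The quartiles here were not matched on total count.

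**Figure D4:**
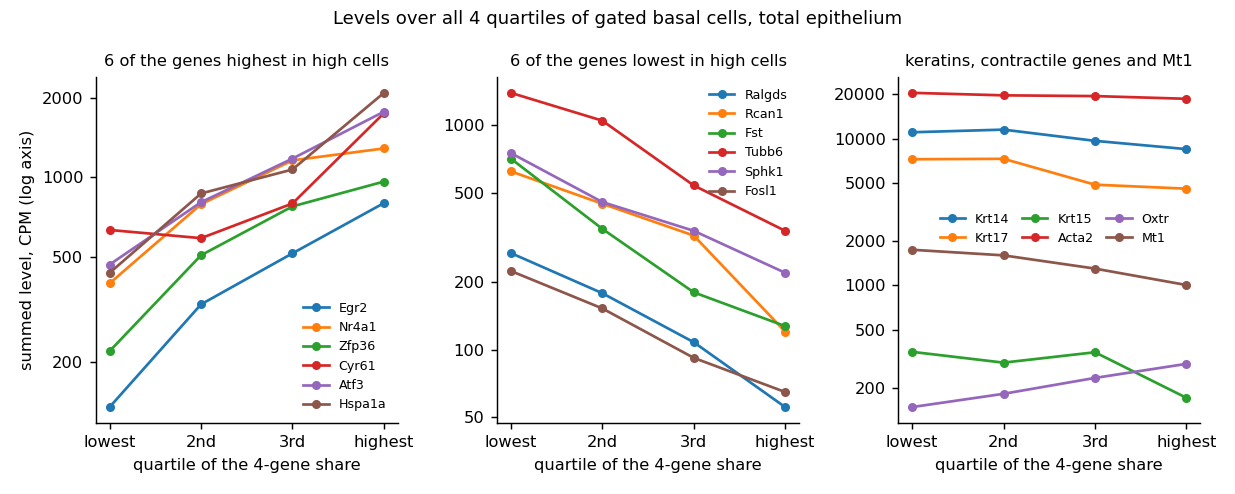
Summed level in CPM (vertical, log axis, a separate scale for each panel) in the 4 quartiles of the 1070 gated basal cells, ordered from the lowest to the highest 4-gene share, for 6 of the genes highest in high cells, 6 of the genes lowest in them, and keratins, contractile genes and Mt1. Egr2 goes from 136 to 800 CPM and Fst from 709 to 127 CPM in steps, while Acta2 is nearly level.

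The contractile programme was nearly level across the ranking. Of 18 contractile genes 16 were measured, 1 was higher and none lower, against 8.59% and 8.51% of all measured genes. The median log2 ratio was −0.02 and the summed log2 ratio −0.07 (−0.10 to −0.04). Acta2, smooth muscle actin, was at −0.12, Tagln at −0.05, Myh11 at −0.18 and Cnn1 at 0.01. Acta2 is 1 of the gate genes. The higher one was Oxtr, the oxytocin receptor that triggers milk ejection, at 313 and 172 CPM (0.86, 0.42 to 1.31), and Lmod1, an actin nucleator of smooth muscle, was just under the limit at 0.57. Smtn was at 0.23 and Myl6 at −0.25. The sum was 0.0055 when cells were ranked within bins of total count and −0.27 between the 10% of cells with the highest and the 10% with the lowest share.

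Keratins of the basal cell did not move together. Of 20 keratin and adhesion genes 9 were measured, none higher and 2 lower, against 8.59% and 8.51% of all measured genes. Krt17 had 0 to 57 counts (median 5) in high and 0 to 98 (median 9) in low cells, or 4364 against 7541 CPM (−0.79, −0.88 to −0.70). Krt15 was at 171 and 354 CPM (−1.05, −1.497 to −0.62), with counts in few cells of either group. Krt14 was at −0.50 and its pairing partner Krt5 at 0.49, both within the limit and both gate genes. Dst and Lamb3, of the hemidesmosome and its laminin ligand, were at 0.52 and 0.51. The summed list was lower in high cells, by −0.49 (−0.54 to −0.45), while its median was −0.07, since Krt14 and Krt17 hold most of its counts.

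In the matrix list, 9 of 20 were measured and 2 were lower, where 8.51% of all measured genes were. These were the IGF-binding proteins Igfbp2, at 349 and 675 CPM (−0.95, −1.26 to −0.65), and Igfbp3, at 265 and 451 CPM (−0.76, −1.13 to −0.41). Igfbp5 was at −0.02 and Sparc at 0.20. Epcam, an adhesion protein higher in luminal cells, was at 741 and 1285 CPM (−0.79, −1.01 to −0.58), while Krt18, a gate gene, was at 673 and 476 CPM (0.50) and Krt8 at 0.13. Of the luminal progenitor list, Lcn2, an iron-binding secreted protein, was at 1306 and 2448 CPM (−0.91, −1.07 to −0.75), and Trf and Mfge8 were at −0.31 and −0.27. Lcn2, Krt15 and Epcam were thus lower in high cells, while Krt8 and Krt18 were not. In luminal cells of this library Lcn2 was at 2223.5 CPM, Krt15 at 16.4 CPM and Epcam at 5130 CPM. Only Epcam of these was thus higher in luminal cells than in the low basal cells. No mature luminal marker was measured. Dcn, a proteoglycan counted with the fibroblast markers, was at 292 and 473 CPM (−0.70, −1.05 to −0.35). Scn7a, a sodium channel listed here with the Schwann cell markers, was at 184 and 110 CPM (0.75). It was almost absent from luminal cells, at 1.47 CPM, and the paper lists it among the genes of adult basal cells.

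Lists with few measured genes gave little. Of 20 basal transcription factors only Sox4 (0.14) and Nfib (0.10) were measured. Trp63, which specifies the basal lineage, had 38 and 21 counts, and Egr4, also in that list, had 18 and 3. Both went the other way in the sorted basal library, with 25 and 29 counts for Trp63 and 17 and 33 for Egr4. Of 14 proposed stem cell markers only Dll1 was measured, at −0.16, while Procr had 0 and 8 counts. Of the p53 and apoptosis genes, 4 of 14 were measured and none passed the limit, with Cdkn1a at 0.41 and Phlda3 at −0.20. Of the cell cycle genes, 4 of 26 were measured. Hmgb2, a chromatin protein, was at 213 and 107 CPM (0.99, 0.44 to 1.56) and Tubb5 at 0.21, and Mki67 had no count. Of 20 translation factors and nucleolar proteins, 19 were measured, none higher and 2 lower, Nop58 at 565 and 924 CPM (−0.71) and Fbl at 213 and 334 CPM (−0.65). That count of lower genes was near the 8.51% of all measured genes. Of 84 ribosomal protein genes 66 were measured, 2 were higher and none lower, against 8.59% and 8.51% of all measured genes. Their summed log2 ratio was 0.01 (−0.02 to 0.03).

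The sorted basal library gave the same contrast in other cells, from the same strain and age. There 995 genes were measured, 85 were at least 1.5-fold higher (8.54%) and 137 at least 1.5-fold lower (13.8%), or 22.3% either way, with a median of −0.08. Over the 786 genes measured in both libraries the log2 ratios had a Pearson correlation of 0.75 and a Spearman correlation of 0.61, as a description across genes, which share the ranking rule and the depth of each library. Of 61 genes higher in the total epithelium library, 40 were also higher in the sorted library, which is 65.6% of the former and 59.7% of the 67 in the latter. Of 85 lower genes, 54 were also lower, which is 63.5% of the former and 51.9% of the 104 in the latter. None of the 786 genes passed the limit in opposite directions. By sign alone, 57 of the 61 lay above 0 and 80 of the 85 below 0 in the sorted library, where 43.4% of all 786 lay above 0.

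**Figure D5:**
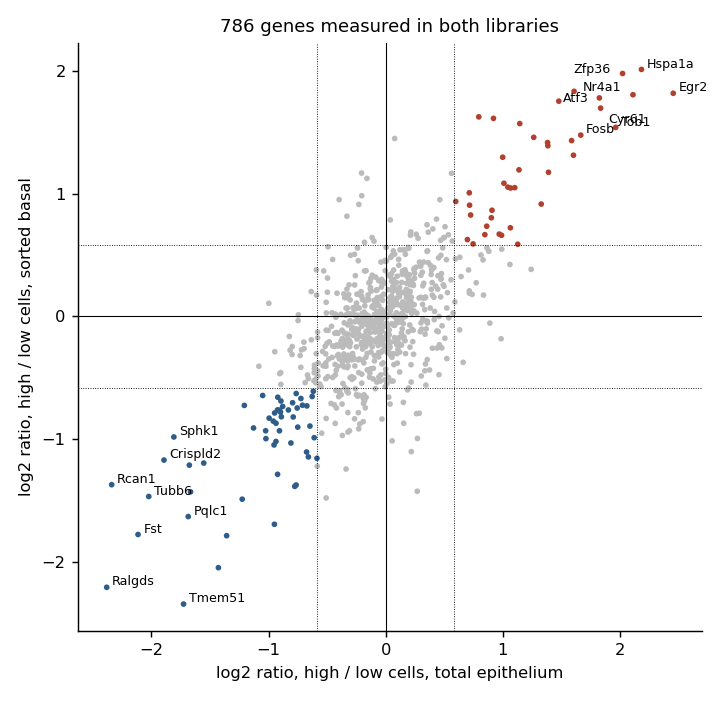
Log2 ratio of immediate-early-high to immediate-early-low basal cells in the sorted basal library (vertical axis) against the total epithelium library (horizontal axis) for the 786 genes measured in both, without the 4 ranking genes. Red points, 40 genes, are at least 1.5-fold higher in both and blue points, 54 genes, at least 1.5-fold lower in both; no gene passes the limit in opposite directions.

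The early response factors had similar ratios in the sorted library. Egr2 was at 1.82 there, Nr4a1 at 1.81, Hspa1a at 2.01, Zfp36 at 1.98, Cyr61 at 1.70, Atf3 at 1.78, Fosb at 1.48 and Ppp1r15a at 1.83. Of the lower genes, Ralgds was at −2.21, Fst at −1.78, Tmem51 at −2.34, Tubb6 at −1.47, Rcan1 at −1.37 and Sphk1 at −0.98. Krt17 was at −0.82, Lcn2 at −0.93, Igfbp2 at −1.69 and Txnrd1 at −1.79. Fosl1 had 19 and 66 counts there, under the floor, with a log2 ratio of −1.73. Fbl was the named gene past the limit that differed in sign, at −0.65 in the total epithelium library and 0.76 in the sorted library, where it had 47 and 29 counts and was under the floor. In the lists, 12 of 19 other immediate-early factors, 8 of 16 feedback genes and 2 of 15 heat shock genes were higher. Over all genes measured there, 8.54% were higher and 13.8% lower, so the heat shock count was near that share. The feedback list also had 2 lower genes, while the other immediate-early and heat shock lists had none. The contractile genes had a summed log2 ratio of −0.06 in the sorted library, against −0.07.

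Start-site sequences were searched for letters that known regulators of these genes bind: the CArG box of serum response factor, the cyclic AMP response element TGACGTCA, and the AP-1 site TGACTCA, each on both strands. The windows were the 250 bases before each RefSeq start site (GRCm38.p6), of which a gene can have several, and 1047 of the 1304 measured genes had one. The CArG box was in windows of 5 of 91 higher genes (Egr2, Nfix, Rnd3, Tceal8 and Zfp36), or 5.49%, of 2 of 89 lower genes, or 2.25%, and of 2.01% of all measured genes. By window it was in 1.47% of all 32851. The cyclic AMP response element was in windows of 10 of 91 higher genes (11.0%), Btg2, Dusp1, Gpbp1, Irf2bpl, Plk2, Ppp1r15a, Rpl27a, Slc25a25, Topors and Trip6, of 5 of 89 lower genes (5.62%) and of 4.39% of all measured genes, and in 1.55% of all windows. The AP-1 letters were in none of the 91 higher genes, in 5 of 89 lower genes (5.62%, Igfbp2, Nme1, Rcan1, Sphk1 and Tpbg) and in 5.16% of all measured genes, and in 4.46% of all windows. These are counts of letters and were not tested. The windows are short, and no match says only that the letters are not in that window.

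The windows of 5 of the genes above show these letters, in capitals, beside the direction of the gene. The genes were taken because a window held such letters. Igfbp2, with the AP-1 letters, and Akirin1, with the cyclic AMP response element, both lower in high cells, also had such a window and are not shown. For a gene with several windows, the window with the most kinds of these letters was taken. Egr2 (chr10:67537316-67537565, plus strand) and Zfp36 (chr7:28379229-28379478, minus strand), both higher in high cells, hold a CArG box that starts 72 and 58 bases before the RefSeq start site of that window. The Egr2 window is 1 of 5, of which 4 hold the box. Ppp1r15a (chr7:45526269-45526518, minus strand), also higher, holds the cyclic AMP response element. Sphk1 (chr11:116531587-116531836, plus strand), lower in high cells, holds the AP-1 letters in their reverse reading. Its window is 1 of 5, of which 2 hold the AP-1 letters. Rcan1 (chr16:92400079-92400328, minus strand), lower, holds the cyclic AMP response element and then the AP-1 letters in 1 of its 2 windows. The start sites of these windows lie 2091 (Egr2), 1025 (Zfp36), 0 (Ppp1r15a), 912 (Sphk1) and 70789 bases (Rcan1) from the gene start in the GENCODE annotation. Each window is written 5′ to 3′ on the strand of the gene.
Egr2: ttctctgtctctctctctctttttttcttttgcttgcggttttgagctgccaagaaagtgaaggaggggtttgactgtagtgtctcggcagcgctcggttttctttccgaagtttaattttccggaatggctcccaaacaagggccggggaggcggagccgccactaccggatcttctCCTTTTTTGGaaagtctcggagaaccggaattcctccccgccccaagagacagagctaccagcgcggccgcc
Zfp36: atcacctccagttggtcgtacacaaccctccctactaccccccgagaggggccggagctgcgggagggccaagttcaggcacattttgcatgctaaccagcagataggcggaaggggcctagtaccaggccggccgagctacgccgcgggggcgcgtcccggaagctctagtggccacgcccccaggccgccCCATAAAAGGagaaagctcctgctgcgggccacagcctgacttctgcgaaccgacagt
Ppp1r15a: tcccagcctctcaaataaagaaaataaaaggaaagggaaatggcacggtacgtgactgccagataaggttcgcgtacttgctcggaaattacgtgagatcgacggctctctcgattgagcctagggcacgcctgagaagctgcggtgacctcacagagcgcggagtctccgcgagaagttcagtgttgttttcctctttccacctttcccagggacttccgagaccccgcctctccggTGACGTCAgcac
Sphk1: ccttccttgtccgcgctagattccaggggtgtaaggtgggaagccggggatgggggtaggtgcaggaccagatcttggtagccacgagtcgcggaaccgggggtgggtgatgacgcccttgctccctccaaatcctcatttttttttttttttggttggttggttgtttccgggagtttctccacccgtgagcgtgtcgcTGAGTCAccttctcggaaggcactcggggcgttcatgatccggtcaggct
Rcan1: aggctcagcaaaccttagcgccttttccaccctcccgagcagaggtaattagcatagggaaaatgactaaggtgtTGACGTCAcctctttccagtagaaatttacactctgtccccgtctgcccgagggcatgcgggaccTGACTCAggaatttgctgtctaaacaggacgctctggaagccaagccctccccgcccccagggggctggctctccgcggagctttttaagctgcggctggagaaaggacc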

How the data were processed

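The authors counted unique molecules per gene and cell with Cell Ranger and deposited the counts as whole numbers, with no normalization. Per the labels' processing notes the release was 1.2.1 and the build mm10, while the study's methods name another release. The cells, the 4 ranking genes and the gene lists were chosen with earlier results of these data known. Pairs of cells were matched on log2 total count within 0.1 by optimal assignment (scipy 1.17.1, numpy 2.4.6, pandas 2.3.3, Python 3.11.15). Counts were summed over the matched cells and divided by the summed total without the 4 ranking genes, which gives CPM. Genes needed 100 counts in both groups together, and the limit was a 1.5-fold ratio. Intervals are 95% Clopper-Pearson, conditional on the summed count, and cover counting error only. The functions were tested on simulated data. Genes named are, in each list, the measured members with the largest ratio in size (up to 4 for the early response, heat shock and contractile lists and 2 for others) and the 10 highest and 10 lowest of all. Other genes were named after their values were seen. For start-site windows, gene names were matched to RefSeq by current symbol for 1266 measured genes (ranking genes included) and by older symbol for 38, with 4 unmatched, and 1047 of the 1304 other genes had a window. Columns of the gene and barcode tables served as names.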

Additional observations from a re-analysis of the deposited data

How the results depend on the processing

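Of 45 named genes past the 1.5-fold limit outside the ranking rule, none changed sign under 16 alternatives and 36 stayed past the limit under every one. The 9 that fell under it at least once were Ahsa1, Dcn, Fbl, Hmgb2, Igfbp3, Nop58, Rem2, Scn7a and Xbp1. The named genes had been picked for large ratios in these same cells. Some alternatives shift all genes by the same small amount and could not change a sign past the limit. These were setting the median ratio to 0 and leaving mitochondrial and ribosomal protein genes out of the denominators. The counts of higher and lower genes (112 and 111) move with the number of cells and the floor, which is part of how these are built: 117 and 159 without matching, 114 and 142 when ranked within bins of total count, 73 and 74 with cells thinned to 1000 counts, 48 and 62 between the 10% of cells with the highest and the 10% with the lowest share, 65 and 81 with fewer than 4 luminal keratin counts, 67 and 89 without cells that hold a marker of another cell type, 273 and 263 at a floor of 50 counts, 41 and 61 at 200, 3715 and 2992 with no floor, and 39 and 27 at a 2-fold limit. The summed log2 ratio of the AP-1 partner, immediate-early and feedback lists together (0.68) was 0.78 without matching, 0.72 when ranked within bins of total count, 0.63 as a mean of cell CPM, 0.62 when ranked without Fos, 0.89 between these 10% groups and 0.57 without cells with other markers. The heat shock sum (0.25) was 0.18 within bins, 0.20 thinned, 0.19 when ranked without Junb, 0.39 between these 10% groups and 0.15 without cells with other markers. The contractile sum (−0.07) turned to 0.0055 within bins, and was −0.11 thinned, −0.12 when ranked without Fos, −0.27 between these 10% groups, −0.11 with fewer luminal keratin counts, −0.0129 without cells with other markers and −0.11 without the 5% of cells with the highest totals. Without cells with other markers the matrix sum turned from −0.09 to 0.0027 and the sum of the 12 listed pericyte genes from −0.90 to 0.32. That alternative leaves out every cell with a count of 6 of these 12 (Rgs5, Notch3, Pdgfrb, Kcnj8, Abcc9 and Higd1b), so their counts were 0 by its rule. Between these 10% groups the sum of the 8 listed Schwann cell genes, Scn7a included, turned from 0.54 to −0.19. In the main comparison Scn7a, a basal gene in the paper, held 70 of the 88 counts of that list in high cells and 44 of 64 in low cells. The cause of these changes was not tested beyond that. Leaving out barcodes found in both libraries, an alternative chosen after seeing the data, gave 114 and 111. At the depth of single cells, a gene with a median count of 0 cannot be ranked cell by cell, and genes under 100 summed counts were not compared.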
